A study of Homo sapiens with 6 samples.

Results

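The 10 genes described here mark the macrophages of the mouse host inside human A549 tumours. They were taken by Ensembl ID: C1qa (ENSMUSG00000036887), C1qb (ENSMUSG00000036905), C1qc (ENSMUSG00000036896), Adgre1 (ENSMUSG00000004730), Csf1r (ENSMUSG00000024621), Cd68 (ENSMUSG00000018774), Mrc1 (ENSMUSG00000026712), Cd163 (ENSMUSG00000008845), Lyz2 (ENSMUSG00000069516) and Itgam (ENSMUSG00000030786). All 10 were present among the 77134 mouse gene rows of the table, and 9 of them passed the filter on low counts, which left 12637 genes to test. Cd163 did not pass it.

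A549 is a human lung adenocarcinoma line. Its cells carried a stable lentiviral construct, either pLV-CMV-EGFP-Neo (vector control, 3 tumours) or pLV-CMV-HIF1A-AS3-EGFP-Neo (HIF1A-AS3 overexpression, 3 tumours). HIF1A-AS3 is a human antisense RNA of the HIF1A locus. In both groups 5000000 cells were placed under the skin of BALB/c nude mice, athymic animals that lack most T cells but keep macrophages. Total RNA of each tumour gave 1 library. No label used here gives the age of the mice, the time of growth or whether each tumour of a group grew in its own mouse. The p-values thus reflect the spread between tumours as sampled, technical spread included, and treat the tumours of a group as independent. Tumours that shared a mouse would not be.

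Macrophages enter tumours as blood monocytes or are present in the tissue beforehand, and the receptor encoded by Csf1r keeps most of them alive. They take up dying cells, secrete complement C1q and lysozyme, and carry scavenger receptors such as those encoded by Mrc1 and Cd163, which are prominent on resident and alternatively activated macrophages. No single gene of the set is exclusive to macrophages: neutrophils and monocytes express Itgam and Lyz2, and lymphatic and some other endothelial cells express Mrc1. In RNA of a whole tumour, fewer cells of a type and less RNA per cell cannot be told apart. How much human RNA was counted on these mouse genes was not tested.

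Libraries held 4167784 to 4769157 estimated counts on mouse genes. Values below are estimated counts, or CPM, which are counts per 1000000 of the total over the genes tested after scaling by TMM, edgeR's correction for differences in RNA composition. The TMM factor of overexpression replicate 1 was 0.742, against 1.02 to 1.10 in the other libraries, and only 17356 genes reached 1 count in it, where the others had 18753 to 19010. Its CPM are therefore high relative to its raw counts. Replicates were not duplicates, since even the most alike pair (controls 1 and 3) varied 3.96 times as much as counting noise would give. By this measure the most unlike controls (2 and 3) stood at 13.1, and pairs of overexpressing tumours at 28.7 to 83.4. As a mean over genes, the overexpressing tumours thus differed more among themselves than the controls did. This did not hold for each macrophage gene taken singly. Markers of other cell types and the overexpressed RNA were not analysed here, so neither the labels nor the cell mixture could be checked against them.

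The macrophage genes were readily detected in all 6 tumours, except Cd163. Together the 10 genes made up 0.168%, 0.222% and 0.141% of all estimated counts in controls 1, 2 and 3, and 0.164%, 0.145% and 0.118% in overexpression replicates 1, 2 and 3. Summed CPM were 1642 ± 413 in control tumours and 1605 ± 553 in overexpressing tumours (SD, n = 3 each), a difference of -37.4 that lay within the spread of either group. This rests on the scaling and on single libraries: it was -347 CPM with library totals in place of TMM, and -401 to 191 CPM with 1 library left out, the lowest without overexpression replicate 1 and the highest without control 2. As a share of all estimated counts the 10 genes held 0.177% ± 0.042 in the vector group and 0.143% ± 0.023 in the overexpression group (SD, n = 3 each), with overlapping libraries. Lyz2 and the C1q genes supply most of this sum.

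The comparison of overexpression with control tumours asks whether raising HIF1A-AS3 in the cancer cells goes with a different host macrophage signal. Of the 9 genes tested, 0 passed an adjusted p of 0.05 in edgeR's quasi-likelihood test, where 0.0158% of all genes tested did, and 0 passed in DESeq2 or limma-voom. With TMM scaling the other 8 genes tested had log2 fold changes within 0.101 of 0, while the mannose receptor gene Mrc1 stood at a log2 fold change of -1.26, and the haemoglobin scavenger receptor gene Cd163 was at 0 in every overexpression library. The position of the 8 genes depended on scaling and on overexpression replicate 1: their log2 fold changes were -0.36 to -0.17 with library totals, where the median of all genes was -0.21, and -0.48 to -0.17 without that library, where the median of all genes was -0.014. At an unadjusted p below 0.05 and a lower level in overexpressing tumours, Mrc1 was 1 of 9, against 2.71% of all genes tested. Without overexpression replicate 1, 2 of the 9 reached an unadjusted p below 0.05 in edgeR, as did 614 of 13095 genes in either direction.

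**Figure D1:**
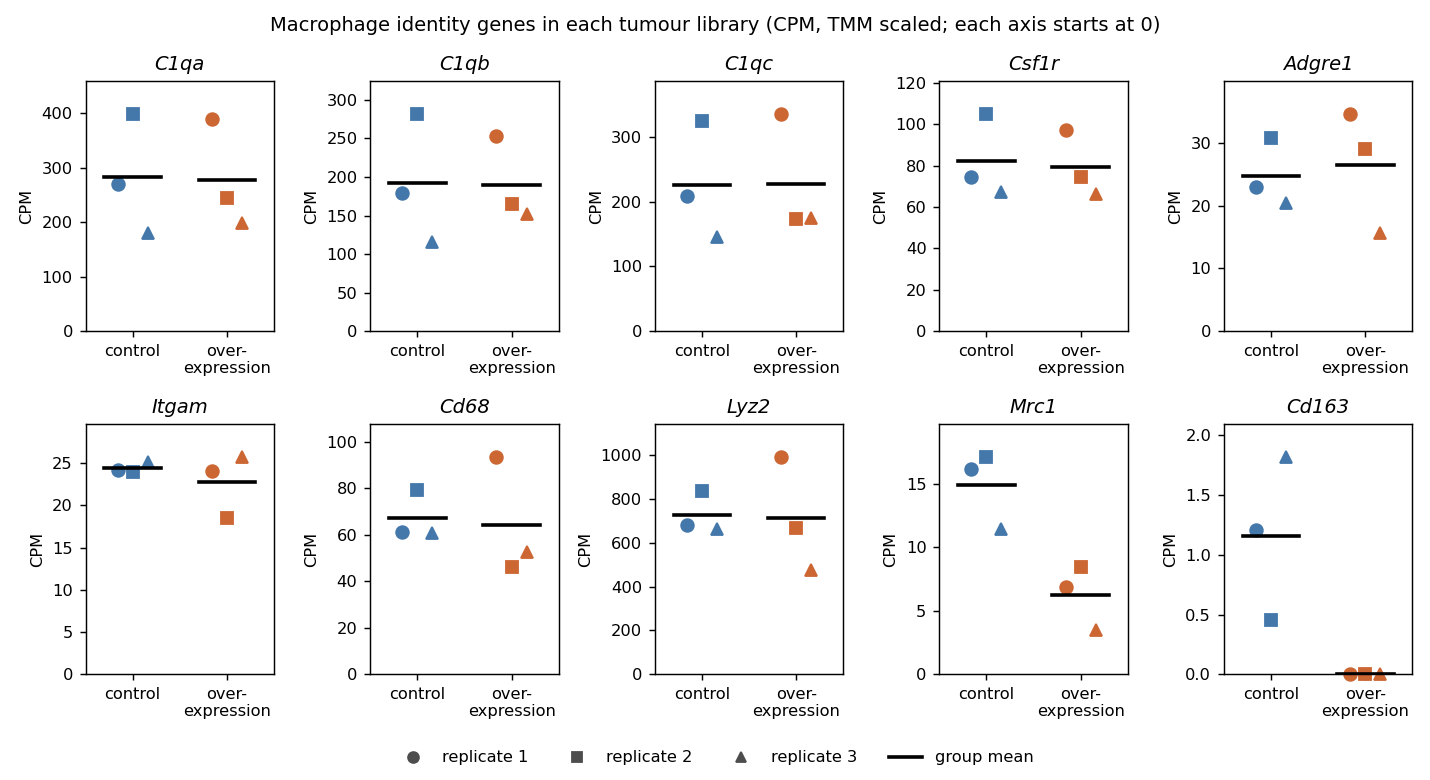
Level of each of the 10 genes in CPM (vertical axes, each from 0) in 3 vector control (blue) and 3 HIF1A-AS3 overexpression (orange) tumours, 1 point per library and a bar at the group mean. The groups overlap in every panel but those of Mrc1 and Cd163.

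C1qa, C1qb and C1qc encode the chains of C1q, the recognition protein of the classical complement pathway, which tissue macrophages produce and which also tags dying cells for uptake. C1qa had 1246, 1764 and 838 estimated counts in controls 1, 2 and 3, and 1369, 1163 and 863 in overexpression replicates 1, 2 and 3. In CPM these were 269, 399 and 180.1 against 389, 245 and 198. The highest and the lowest library were both controls, and the overexpressing tumours lay between them. The log2 fold change of C1qa was -0.028, its standard error 0.35 and its adjusted p 0.98 (edgeR).

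C1qb followed the same order of libraries as C1qa, from control 2 at the top to control 3 at the bottom. It measured 179 CPM, 282 CPM and 116 CPM in controls 1 to 3 and 253 CPM, 165 CPM and 151 CPM in overexpression replicates 1 to 3. Its group means were 192 ± 83.8 and 190.0 ± 55.3 CPM (SD, n = 3 each), and its log2 fold change was -0.019. C1qc measured 209 CPM, 325 CPM and 146 CPM in control tumours and 336 CPM, 173 CPM and 175 CPM in overexpressing tumours, with overexpression replicate 1 at the top. Its log2 fold change was 0.0081 (standard error 0.37). Among controls alone C1qb varied 2.43-fold, more than any difference between the group means of the C1q genes.

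The 3 chains are assembled together, so their proportions were also compared. C1qa supplied 41.0%, 39.7% and 40.7% of the summed C1q counts in controls 1 to 3 and 39.8%, 42.0% and 37.9% in overexpression replicates 1 to 3. C1qb supplied 25.9% to 28.9% over the 6 libraries. The share of C1qc was 32.3% ± 0.636 in control tumours and 32.4% ± 2.46 in overexpressing tumours (SD, n = 3 each). No share separated the groups (two-sided exact permutation p = 0.8 for C1qa, 0.7 for C1qb and 1 for C1qc, where 0.1 is the smallest that 3 against 3 allows, and 3 shares that sum to a whole are not independent). Within the overexpression group C1qc took 34.3% in replicate 1 (exact 95% binomial interval 32.8% to 36.0%) and 29.7% in replicate 2 (28.0% to 31.4%), a gap beyond counting error alone. Estimates of C1qc were not whole numbers, unlike those of C1qa and C1qb, as happens when reads are shared between rows.

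**Figure D2:**
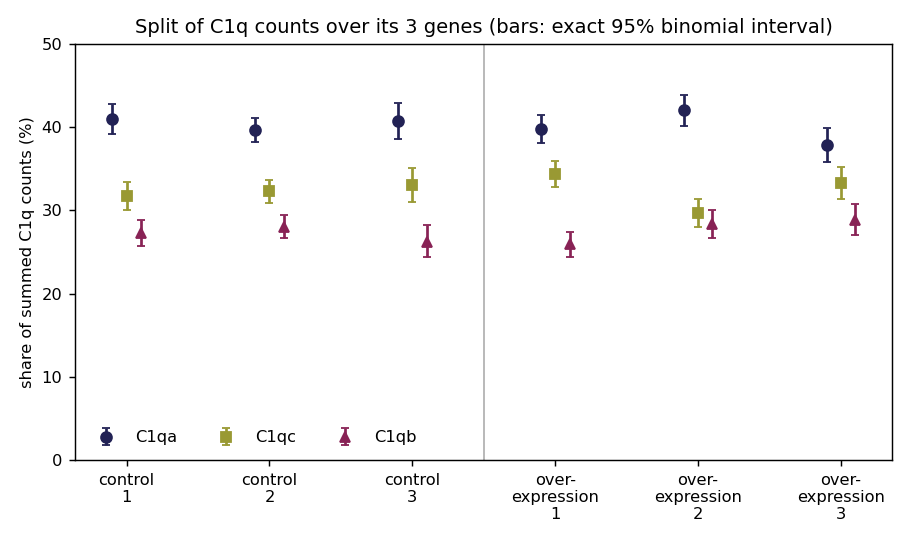
Share of the summed C1q counts (vertical axis, percent) that came from C1qa, C1qc and C1qb in each of the 6 libraries, with exact 95% binomial intervals that cover counting error only. C1qa is highest everywhere, at 37.9% to 42.0%, and overexpression replicate 2 has the lowest C1qc share, 29.7%.

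Csf1r encodes the receptor for the growth factors CSF1 and IL-34, on which most macrophages depend. It had 343, 464 and 313 estimated counts in controls 1 to 3 and 342, 353 and 289 in overexpression replicates 1 to 3. That corresponds to 82.2 ± 20.1 CPM in control tumours and 79.3 ± 16.01 CPM in overexpressing tumours (SD, n = 3 each). The groups overlapped across almost their whole range, and the log2 fold change was -0.051 (standard error 0.23).

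Adgre1 encodes the adhesion receptor most used as a surface marker of mouse macrophages, and Itgam encodes CD11b, the integrin alpha chain of complement receptor 3. Adgre1 measured 22.9 CPM, 30.8 CPM and 20.4 CPM in control tumours and 34.7 CPM, 29.1 CPM and 15.6 CPM in overexpressing tumours, so its highest and lowest libraries were both overexpressing tumours. Its log2 fold change was 0.10 (standard error 0.31). With TMM scaling Itgam was the steadiest gene of the set. It measured 24.2 CPM, 23.9 CPM and 25.1 CPM in control tumours and 24.0 CPM, 18.5 CPM and 25.7 CPM in overexpressing tumours, with overexpression replicate 2 the lowest. With library totals overexpression replicate 1 was the lowest at 17.8 CPM, so this order depends on the scaling. Its log2 fold change was -0.10 (standard error 0.19).

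Cd68, a lysosomal membrane glycoprotein gene, and Lyz2, the gene of the lysozyme of mouse myeloid cells, represent the degradative side of the macrophage. Cd68 measured 61.4 CPM, 79.2 CPM and 61.0 CPM in control tumours and 93.6 CPM, 46.3 CPM and 52.5 CPM in overexpressing tumours. The control values all fell inside the range of the overexpressing tumours, and the log2 fold change was -0.073 (standard error 0.29). Lyz2 had 3153, 3691 and 3080 estimated counts in the vector tumours and 3488, 3161 and 2067 in overexpressing tumours, or 726 ± 94.6 and 711 ± 261 CPM (SD, n = 3 each). Its overexpression libraries spanned 2.08-fold and its controls 1.26-fold, and the log2 fold change was -0.031 (standard error 0.30). Lyz2 has a close relative, Lyz1, with which reads can be shared, and its estimates were not whole numbers.

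The 95% intervals of these 8 genes, not adjusted for the number of genes, ran at the widest from 1.80-fold lower to 1.82-fold higher in overexpressing tumours (both for C1qc), so changes of that size were not distinguishable from none. Of all genes tested, 23.0% had fitted log2 fold changes as close to 0 as these 8. The median log2 fold change was -0.031 over the 9 genes and 0.0065 over all genes tested.

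**Figure D3:**
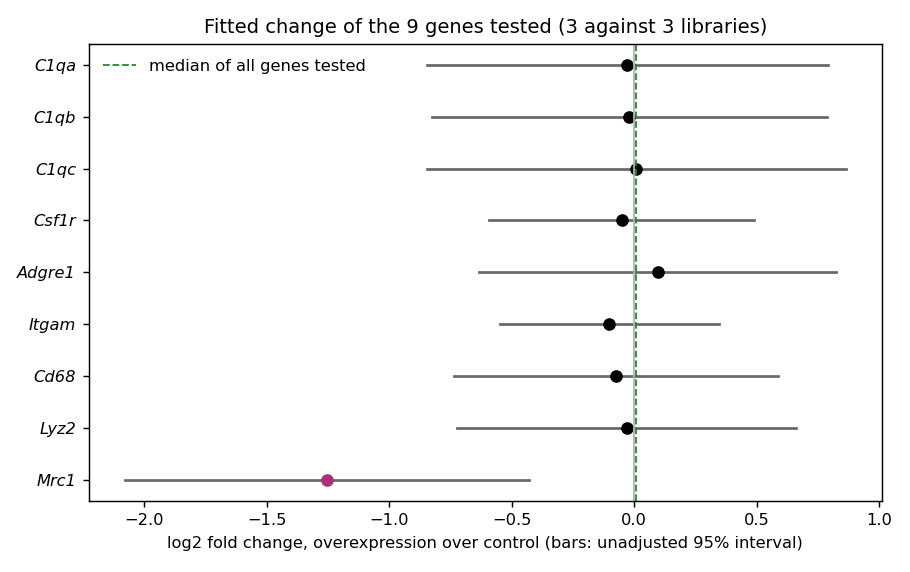
Fitted log2 fold change, overexpression over control (horizontal axis), of the 9 genes tested, with unadjusted 95% intervals, and the median of all genes tested as a dashed line. The intervals of 8 genes include 0, and that of Mrc1 runs from -2.08 to -0.43.

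Mrc1 encodes CD206, an endocytic receptor for mannose-bearing glycoproteins. It had 74.6, 75.6 and 53.0 estimated counts in controls 1, 2 and 3, and 24.1, 40 and 15.1 in overexpression replicates 1, 2 and 3. In CPM these were 16.1, 17.1 and 11.4 against 6.85, 8.43 and 3.48. Every control lay above every overexpression tumour, with overexpression replicate 2 the nearest to the controls. Group means were 14.9 ± 3.05 and 6.25 ± 2.53 CPM (SD, n = 3 each), 2.39-fold lower in overexpressing tumours (95% interval 1.35 to 4.23). The unadjusted p was 0.0081, but the adjusted p over all genes tested was 0.70 in edgeR's quasi-likelihood test, so Mrc1 did not pass. Of the 9 genes tested, 1 had groups that did not overlap in this direction, against 6.39% of all genes tested, and 0 had groups apart in the higher direction, against 6.75%. The count of 1 gene is too small to set this list apart from all genes.

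Mrc1 was also expressed relative to the other 8 genes within each library, a measure that does not depend on how libraries are scaled. This was chosen after the values were seen, with Mrc1 as the gene that differed and the other 8 as those that differed little, so the ratios restate its difference free of scaling and carry no test. Per 100 estimated counts of Adgre1, Mrc1 had 70.4, 55.6 and 55.8 in controls 1 to 3 and 19.8, 29.0 and 22.2 in overexpression replicates 1 to 3. Per 100 counts of Csf1r it had 21.7, 16.3 and 16.95 in control tumours and 7.05, 11.3 and 5.24 in overexpressing tumours. For both partners the groups lay apart. The same held for 7 of the 8 ratios, which share Mrc1 and are not independent. The share of all genes tested that such ratios would set apart was not computed, so the count does not single out Mrc1. The exception was Itgam, where control 3 at 45.4 and overexpression replicate 2 at 45.5 met.

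The 8 ratios were 2.29-fold to 2.58-fold lower in overexpressing tumours. Against the geometric mean of the 8 genes, Mrc1 was 2.44-fold lower, with log2 ratios of -2.93 ± 0.18 in control tumours and -4.21 ± 0.59 in overexpressing tumours (SD, n = 3 each). With each library left out in turn, the difference in log2 ratio for Mrc1 was -1.62 to -1.07. Estimates of Mrc1 were not whole numbers in 5 of the 6 libraries.

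**Figure D4:**
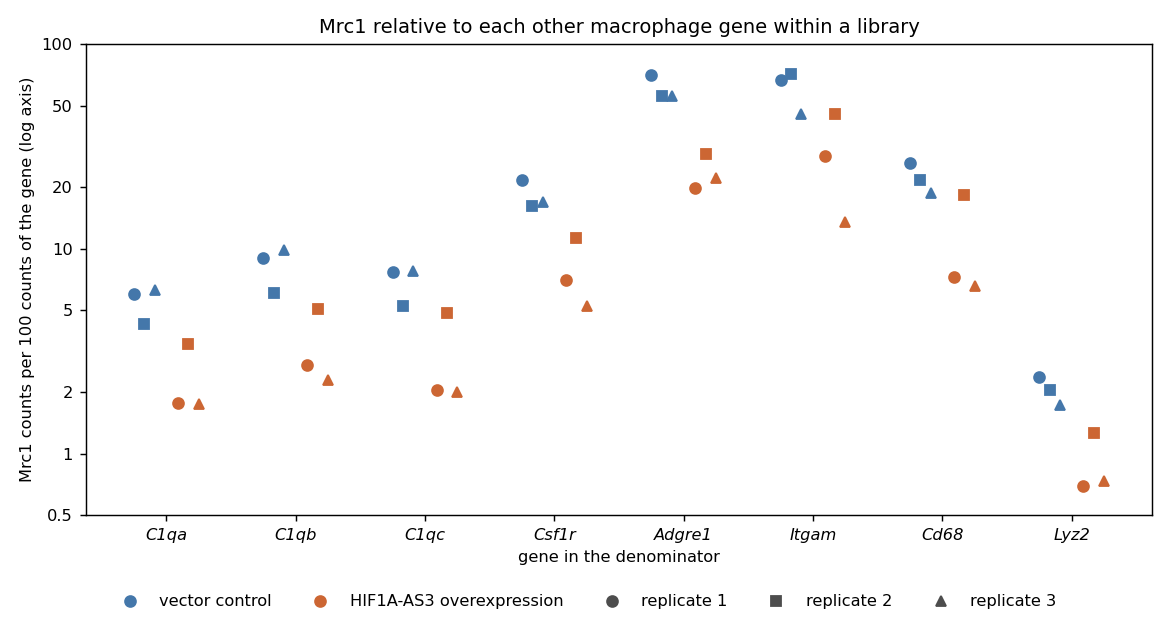
Estimated counts of Mrc1 per 100 estimated counts of each of the other 8 genes tested (vertical log axis; horizontal axis, the gene in the denominator), 1 point per library. Control points (blue) lie above overexpression points (orange) for 7 of the 8 genes, and for Itgam control 3 and overexpression replicate 2 meet. The share of all genes tested with such ratios apart was not computed.

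Cd163 encodes the receptor that clears haemoglobin bound to haptoglobin and is found mostly on macrophages. It had 5.59, 2 and 8.46 estimated counts in controls 1, 2 and 3, whereas every overexpression library read 0. The gene was thus at the edge of detection even in controls, at 1.16 ± 0.685 CPM (SD, n = 3), and control 2 was below 3 counts, the number that a library reading 0 may still hold. Summed over the group, controls held 16.1 counts (exact 95% Poisson interval for 16 counts, 9.15 to 26.0). In the overexpression libraries 3 counts would be 0.632 to 0.852 CPM. This limit for a single library lay above control 2 (0.452 CPM) and below controls 1 and 3 (1.21 and 1.82 CPM), so no fold is given. Pooled over their libraries, controls stood at 1.17 CPM and the overexpression group held 0 counts. A limit for the pooled overexpression libraries was not computed. The two-sided exact permutation p on CPM was 0.1, the smallest that 3 against 3 allows.

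Tested without the filter on low counts, Cd163 gave an unadjusted p of 0.0028 in edgeR (adjusted p = 0.54) and of 0.014 in DESeq2 on all rows (adjusted p = 0.86), so it passed in neither. An unadjusted p below 0.05, in either direction, was reached by 1445 of 25492 genes in that edgeR fit and by 977 genes in DESeq2. The share of genes with similarly few counts that lacked counts in a whole group was not computed.

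The tumours of a group also differed among themselves in these genes. The SD of log2 CPM within groups was 0.18 for Itgam and reached 0.56 for C1qc, against a median of 0.28 over the 8534 genes with a mean of at least 10 CPM. With TMM scaling Itgam alone of the 9 lay under that median. These spreads were not computed with library totals, which can change them. Csf1r in overexpression replicates 1 to 3 was at 97.2, 74.3 and 66.4 CPM with TMM and at 72.1, 76.1 and 68.0 CPM with library totals. Control 2 and overexpression replicate 1 were the highest libraries, in either order, for 7 of the 10 genes: the C1q genes, Adgre1, Csf1r, Cd68 and Lyz2. Part of this rests on the scaling of overexpression replicate 1. With library totals in place of TMM, the same was so for 2 of the 10 genes, control 2 was highest for 8, and C1qa in overexpression replicate 1 stood at 289 CPM in place of 389 CPM. The share of all genes tested with this order of libraries is not given, so these counts do not set the 10 genes apart.

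With either scaling, overexpression replicate 1 was the second lowest library for Mrc1, and overexpression replicate 3 was the lowest for Adgre1, Csf1r, Lyz2 and Mrc1. Itgam was highest in overexpression replicate 3 with TMM (25.7 CPM) and in control 3 with library totals (27.5 CPM). With library totals the groups also lay apart for Mrc1 and Cd163 and overlapped for the other 8 genes. However, that scaling set the groups apart, lower in overexpressing tumours, for 12.8% of all genes tested, which include Mrc1 but not Cd163.

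The genes whose pattern over the 6 libraries was most like the mean of the 9 genes tested (each centred on its own mean log2 CPM) were ENSMUSG00000032897.18, with a Pearson r of 0.99, and ENSMUSG00000060519.12, with 0.98. They were the highest of 8525 genes, those with a mean of at least 10 CPM apart from the 9 genes themselves. Selection from so many genes over 6 libraries that share their scaling makes such values a description only. Of the 10 most alike genes, 0 were among the 10 most like the C1q genes alone. The 9 genes tested did not all share a single pattern. Against the mean of the others, Itgam had a Pearson r of -0.045 and Mrc1 of 0.35, and the rest of 0.79 to 0.94.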

How the data were processed

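The authors deposited 1 table of estimated counts per mouse gene, 1 column per tumour, without normalization, per the file header. The submitters' processing notes name Trimmomatic 0.39, edgeR, DESeq2, HISAT2 2.2.1, featureCounts 2.0.6 and the build mm10 with no role for each. The table's name points to salmon (version not given in the sources used here). All 6 columns were matched to tumours by name. The 10 genes and all lists were chosen with earlier results of these data known. All 10 genes were named, plus the genes most alike in pattern. Lists of other cell types and pathways, drawn up by symbol, were not analysed, since 0 of the table's 77134 IDs were in the name tables used.

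Counts were rounded, filtered with filterByExpr and scaled with TMM, and groups were compared over all genes with edgeR 4.0.16 (robust quasi-likelihood F-test, group only, Benjamini-Hochberg, R 4.3.3). Standard errors are the fold change over the square root of F. CPM use unrounded estimates, and log2 CPM a prior count of 2. Whole means within 0.001. The limit set by a count of 0, taken as 3 counts, is 0.632 to 0.852 CPM per library. Binomial and Poisson intervals and such limits cover counting error only. The script was tested on simulated data. Alternatives were DESeq2 1.42.0, limma-voom (limma 3.58.1), other scalings and filters, a block by replicate number and each library left out.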

Additional observations from a re-analysis of the deposited data

How the results depend on the processing

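None of the 9 genes tested passed an adjusted p of 0.05 in any of 15 alternatives, and Cd163 did not in the 2 that tested it. Mrc1 kept its direction in all of them, at log2 fold changes of -1.55 to -0.97 and adjusted p values of 0.12 to 1. In edgeR, 2 of all genes tested passed. DESeq2 gave 29 (28 on only those genes that edgeR tested, an alternative chosen after seeing the data), limma-voom 7, library totals 4, no filter 14 and leaving out 1 library 0 to 14. With the replicate block it was 0 (414 genes at an unadjusted p below 0.05), and Mrc1 stood at -1.31 (adjusted p = 0.95). The labels do not say that replicate numbers mark pairs, so the numbers were not treated as pairs. Same-numbered libraries deviated from their group means with correlations of -0.34 to -0.09, and differently numbered ones with -0.156 to 0.245. With 3 libraries per group such values constrain each other and cannot decide on pairing. For the other 8 genes, whose log2 fold changes lay near 0, the sign was not stable: it differed in 24 of 120 values, none with an adjusted p below 0.68. C1qb was at 0.041 with limma-voom and with the block. Library totals, which moved the median of all genes from 0.0065 to -0.21, put C1qc at -0.28 and Adgre1 at -0.17. With 1 library left out the ranges were -0.38 to 0.31 for C1qa, -0.31 to 0.37 for C1qb, -0.41 to 0.36 for C1qc, -0.17 to 0.36 for Adgre1, -0.25 to 0.17 for Csf1r, -0.48 to 0.12 for Cd68, -0.38 to 0.19 for Lyz2 and -0.20 to 0.033 for Itgam. For all but Itgam the low value came without overexpression replicate 1. The cause was not tested. The median over the 9 genes ranged from -0.38 to 0.17 and the difference in summed CPM from -401 to 191 with 1 library left out. With library totals these were -0.31 and -347. The Cd163 difference stayed between -1.49 and -0.81 CPM. At 15.1 to 75.6 counts for Mrc1 and at most 8.46 for Cd163, depth limits both.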
